A study of Homo sapiens with 2 samples.

Results

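QML_93 is the name of a short stretch of chromosome 11 that the study amplified by quantitative PCR as a control for closed chromatin when it checked its ATAC-seq libraries. The other closed region was SLC22A3, and the open ones were GAPDH and KAT6B. By this check the study judged all its libraries acceptable. The genes described here are the 5 protein-coding genes around it, CD82, TSPAN18, TP53I11, PRDM11 and SYT13, out of 20033 protein-coding genes in GENCODE release 44. They were selected on their position, in a stretch of chromosome 11 from 44.5 to 45.4 Mb on hg38 (0.9 Mb, called the interval below). The stretch was itself chosen by the fold enrichment, in both replicates, of the peak that overlaps the QML_93 amplicon. The presence of that peak is therefore a description and supports nothing else. The interval held 126 of the 245736 peaks of replicate 1 and 129 of the 259745 peaks of replicate 2.

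CAMA-1 is a human breast cancer cell line of epithelial type that grows attached to the dish. ATAC-seq, in which the Tn5 transposase cuts and tags open DNA, was performed on 2 biological replicates of 50000 cells each, with no treatment stated. Peaks were called in each replicate on its own. Both replicates are the same condition, so no group was set against another and no test was possible. A long-passaged line in culture stands for a single tumour and has none of the other cells of a breast. Protein-coding genes with a peak at a transcription start site (TSS), meaning a peak within 1 kb of any annotated TSS of the gene, were 79.3% of all such genes in both replicates. All 9 markers of luminal breast epithelium on the list (EPCAM, CDH1, KRT8, KRT18, KRT19, GATA3, FOXA1, ESR1 and TFAP2A) had such a peak, with a median fold enrichment of 87.6. The leukocyte markers PTPRC, CD3E, CD2, MS4A1 and LYZ had none. All 5 fibroblast markers had one, at a median of 18.3, from 3.96 at LUM and 9.36 at DCN to 70.3 at COL1A1. Their part in the values below was not tested.

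Open chromatin marks the DNA that proteins can reach, and it is found at the start sites of active genes, at enhancers and at the sites of insulator proteins such as CTCF. Genes with CpG-rich promoters often keep an open start site in many cell types, whereas open regions in introns and between genes differ more from one cell type to the next. CD82 and TSPAN18 encode tetraspanins, membrane proteins with 4 transmembrane segments that organise receptors and integrins, and CD82 is known as a suppressor of metastasis. TP53I11 was found as a gene induced by p53. PRDM11 belongs to the PR domain family of regulators of transcription. SYT13 is an atypical member of the synaptotagmins, proteins of vesicle traffic.

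The QML_93 amplicon was located by the exact match of both its primers, each of which occurs at 1 place in hg38. It is shown because the peak that singled out the interval lies over it, with the sole match to any motif searched in capitals, a CCAAT box at position 136 from its 5′ end, the letters known for the factor NFY.
QML_93 amplicon, chr11:45053008-45053157, plus strand: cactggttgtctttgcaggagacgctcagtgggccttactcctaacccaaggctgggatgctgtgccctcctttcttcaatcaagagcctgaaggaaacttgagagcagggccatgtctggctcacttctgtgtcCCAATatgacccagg
The 150 bp had a GC content of 54.0% and 1 CpG dinucleotide, and no annotated gene overlapped them. The nearest gene on the left, the long noncoding RNA ENSG00000287984, ended 8954 bp away, and the nearest on the right was PRDM11, whose annotated start lay 42648 bp away. A CCAAT match occurred in 18.1% of the windows of the same length at the midpoints of all regions with peaks in both replicates, a region being the overlapping peaks of the replicates joined into 1.

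In each replicate the QML_93 amplicon was covered by a peak that was stronger than most peaks of the interval without being among the strongest. Fold enrichment is the ratio of the peak's pileup of fragments over the background, as the peak caller gives it, and height is the pileup itself, recovered from the steps of the fold enrichment. In replicate 1 the peak spanned chr11:45052477-45053194 (718 bp), covered the whole amplicon, and had a fold enrichment of 17.5 and a height of 75 (exact Poisson 95% interval 59.0 to 94.0). In replicate 2 it spanned chr11:45052690-45053150 (461 bp), covered 143 of the 150 bp, and had a fold enrichment of 24.3 and a height of 109 (89.5 to 131). The intervals on heights cover counting error only. Each peak has 1 fold enrichment and 1 height, a single pileup value and not a level across its width. The lists do not give the position of that value in the peak, so neither can be placed at the amplicon itself. The amplicon lay towards the right end of the peak in both replicates. The midpoint of the joined region was 0.247 kb left of the amplicon's centre. The peak was higher in replicate 2, by 1.39 times, and the mean was 20.9 ± 4.83 (SD, n = 2). Among the peaks of the interval it had rank 35 of 126 by fold enrichment in replicate 1 and rank 27 of 129 in replicate 2, which left it above 72.2% and 79.1% of them. Its place among all peaks of each list was nearly the same, above 72.6% of peaks in replicate 1 and 80.5% in replicate 2. The median peak of the interval had a fold enrichment of 8.40 in replicate 1 and 7.30 in replicate 2, so the QML_93 peak stood at 2.08 and 3.33 times the median. Among peaks more than 1 kb from any annotated TSS, its ranks were 27 of 109 and 21 of 108. By width it had rank 15 in replicate 1 and rank 27 in replicate 2.

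**Figure D1:**
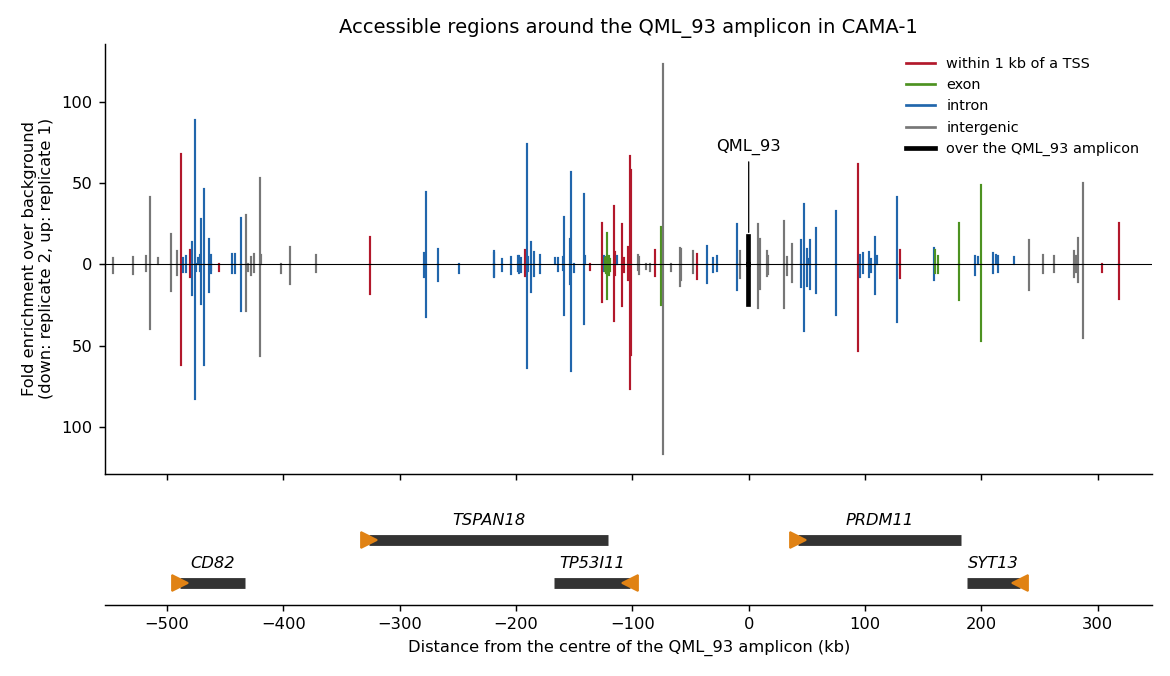
Fold enrichment of every region of the interval against its distance in kb from the centre of the QML_93 amplicon, with replicate 1 drawn upwards and replicate 2 downwards, colours for the place of each region, and the 5 gene bodies below with arrowheads at their most 5′ TSS. The region over QML_93 (17.5 and 24.3) stands between the taller regions of TP53I11 on its left and PRDM11 on its right, and the tallest region of all (123 and 116) lies 73.6 kb to the left.

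The open regions next to QML_93 were mostly intergenic and were found in both replicates. Within 25 kb of the amplicon either side, each replicate had 7 peaks, and the QML_93 peak had rank 3 in replicate 1 and rank 2 in replicate 2. The gap to the nearest peak on the left was 6293 bp in replicate 1 and 6479 bp in replicate 2, and that peak was weaker, with fold enrichments of 8.05 and 8.40. To the right the gaps were 7477 and 7509 bp, and the peak there, at 24.9 and 26.5, was stronger than the QML_93 peak in both replicates. Within 50 kb either side there were 17 regions with peaks in both replicates, 10 intergenic, 6 intronic and 1 at a TSS, with mean fold enrichments from 4.05 to 39.1 and a median of 11.3. By mean fold enrichment, 3 of them were stronger than QML_93. These were the right neighbour (25.7 ± 1.19), a second intergenic region 30.5 kb to the right (26.7 ± 0.365) and a region in an intron of PRDM11, 47.5 kb to the right (39.1 ± 2.89, SD, n = 2 for each).

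**Figure D2:**
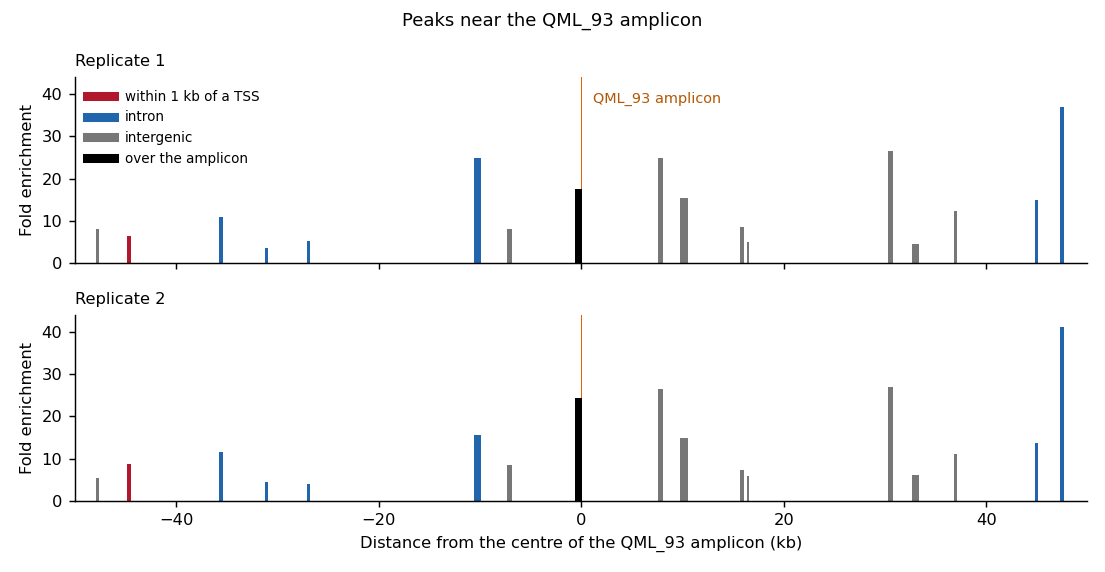
Fold enrichment of each region within 50 kb of the QML_93 amplicon, by replicate, against distance in kb from the amplicon's centre (thin vertical line), each bar as wide as its region. The bar over QML_93 is lower than its right neighbour in both replicates, and in replicate 1 it is also lower than the region 10.2 kb to its left (24.9), whereas in replicate 2 that region is lower (15.5).

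Replicate 2 exceeded replicate 1 by more at QML_93 than at most regions of like strength. Replicate 2 exceeded replicate 1 by 0.48 on the log2 scale at QML_93, against a median of -0.06 and a range of -0.82 to 0.60 over the 115 regions of the interval with peaks in both replicates. These ratios are signed, so a region that was higher in replicate 1 has a lower value whatever the size of its difference. The 3 regions with a larger signed value were weak. Of the 51 regions with at least 50% of the mean fold enrichment of QML_93, 0 had a larger signed value. Among the 24060 regions of the genome whose mean fold enrichment was within 1.25 times that of QML_93, its log2 ratio was above that of 96.4%. The intron region of ENSG00000287984 10.2 kb to the left differed in the other direction, with fold enrichments of 24.9 and 15.5 and a log2 ratio of -0.68. So did an intergenic region 282.6 kb to the right, with 16.1 and 10.8 and a log2 ratio of -0.57. Both differences were larger in size than that at QML_93. The Poisson intervals of the heights at QML_93 (59.0 to 94.0 and 89.5 to 131) overlapped at their ends. These heights were not scaled for depth, so the overlap does not measure the difference between the replicates. With 2 replicates that difference could not be tested.

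Over the interval as a whole, the replicates gave nearly the same set of regions. Of the replicate 1 peaks of the interval, 115 of 126 (91.3%) were overlapped by a replicate 2 peak by at least 1 bp, against 90.2% of all replicate 1 peaks. In the other direction it was 116 of 129 (89.9%), against 84.7% of all replicate 2 peaks. The 11 and 13 peaks that were not found again were weak, with fold enrichments of 3.45 to 5.98 in replicate 1 and 2.87 to 5.53 in replicate 2. Merged over the replicates, all peaks of the interval made 139 regions, 115 of them with peaks in both. Fold enrichments of these 115 regions in the replicates had a Pearson's r of 0.985 and a Spearman's rho of 0.940, across regions that share libraries and are not independent replicates. The interval was denser in peaks than the median window of its length: 126 and 129 peaks stood against medians of 58 and 62 over 3193 windows, and above 81.6% and 80.6% of them. Peaks covered 5.87% of its bases in replicate 1 and 5.76% in replicate 2.

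Most open regions of the interval lay away from TSSs, and the strongest of all was one of them. Of the 115 regions, 54 were intronic (median mean fold enrichment 7.72), 34 intergenic (8.23), 10 exonic (6.38) and 17 within 1 kb of a TSS (17.6). The split of all regions of the genome by place was not computed. Neither these counts nor those near the amplicon therefore have a background beside them, and they show no trait particular to the interval. QML_93 had rank 31 of 115 by mean fold enrichment, and rank 23 of 98 among those away from TSSs. The 22 stronger ones away from TSSs ranged from 23.6 to 119.8, and 8 regions at TSSs were stronger too. Outside the bodies of the 5 genes lay 43 of the 115 regions, of which 10 were stronger than QML_93. The strongest region spanned chr11:44978340-44980539 (2200 bp) with fold enrichments of 123 and 116, above 98.9% of all regions in both replicates, and it began 311 bp past the end of the long noncoding RNA LINC02685 and 4197 bp from the nearest TSS. The next were an intron of CD82 (88.6 and 82.3), the TSS of TP53I11 (66.3 and 76.3), an intron of TSPAN18 (74.1 and 63.5) and the TSS of CD82 (67.9 and 61.7). The central 200 bp of the strongest region are shown because it was the strongest of the interval, and no motif on the list matched in them. Their GC content was 55.0%, with 4 CpG dinucleotides.
Strongest region, centre, chr11:44979339-44979538, plus strand: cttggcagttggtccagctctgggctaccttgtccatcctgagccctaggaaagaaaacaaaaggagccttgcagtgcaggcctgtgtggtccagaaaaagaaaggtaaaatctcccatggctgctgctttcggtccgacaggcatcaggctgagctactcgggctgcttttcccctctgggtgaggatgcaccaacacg

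**Figure D3:**
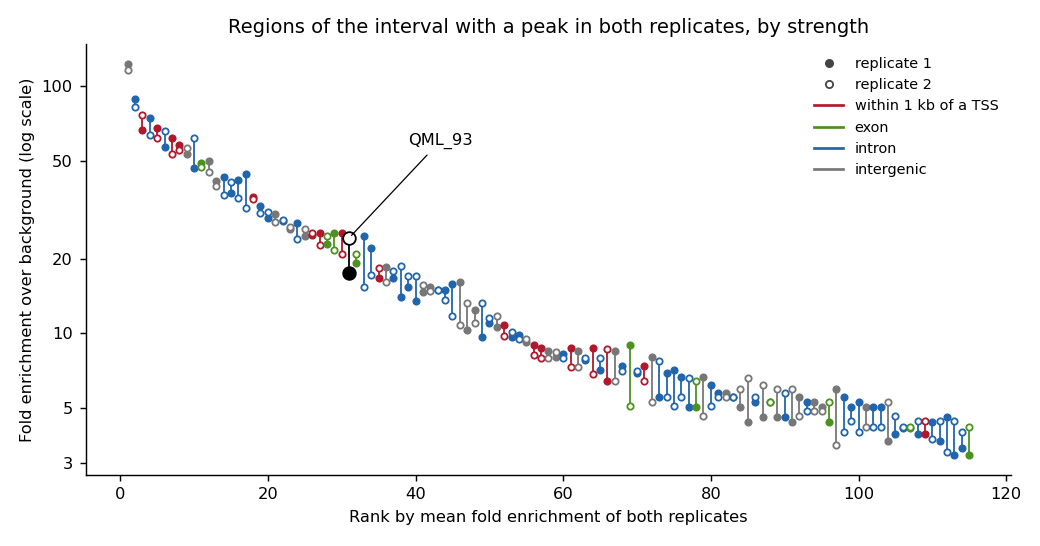
The 115 regions of the interval with peaks in both replicates, in order of mean fold enrichment, with the fold enrichment of each replicate on a log axis (filled, replicate 1; open, replicate 2) joined by a line and coloured by place. QML_93 (black, 17.5 and 24.3) has rank 31, and the first ranks mix intergenic, intronic and TSS regions.

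At their start sites the 5 genes fell into 3 kinds: CD82, TP53I11 and PRDM11 had strong TSS peaks, TSPAN18 had weaker ones, and SYT13 had none. Thus 4 of the 5 had a TSS peak in both replicates, close to the share among all protein-coding genes (79.3%). The count depends on what is taken as a start: it was 3 within 100 bp of a TSS, where TSPAN18 had no peak, and 2 at the most 5′ TSS alone, where PRDM11 had none either. Within 3 kb of a TSS it was 4 again, with the strongest peak of TSPAN18 at 68.8 in place of 24.2. The median mean fold enrichment of the strongest TSS peak was 52.6 over the protein-coding genes that had one. CD82, TP53I11 and PRDM11 were above this median in both replicates, and TSPAN18 was below it in both.

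**Figure D4:**
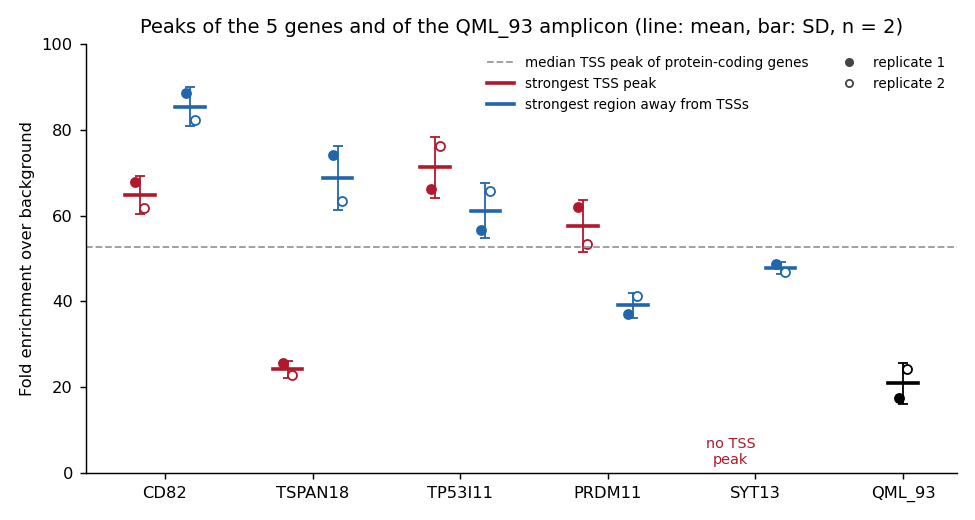
Fold enrichment of the strongest TSS peak (red) and of the strongest region away from TSSs (blue) of each gene, and of the QML_93 peak (black), with each replicate as a point, the mean as a line and the SD as a bar (n = 2). The dashed line is the median of the strongest TSS peaks of protein-coding genes (52.6), and the QML_93 peak (20.9 ± 4.83) has a lower mean than any gene's TSS peak, the nearest being that of TSPAN18 (24.2 ± 1.95).

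CD82 (ENSG00000085117.12, chr11:44564427-44620358, plus strand) was open at its start and across its first introns. Its TSS peak, 1845 bp wide in replicate 1 and 1852 bp in replicate 2, had fold enrichments of 67.9 and 61.7 (64.8 ± 4.37, SD, n = 2) and heights of 294 (261 to 330) and 278 (246 to 313). It lay above the strongest TSS peaks of 65.5% and 58.6% of the protein-coding genes with one. Of the gene's 13 start positions, 9 had a peak within 1 kb in replicate 1 and 10 in replicate 2, and a second, weak TSS peak (8.74 and 7.96) lay over the start at 44573078. Its strongest region was in an intron, 13.0 kb past the most 5′ TSS, at chr11:44577038-44577915, with 88.6 and 82.3 (85.4 ± 4.47). A further intron region, at chr11:44584500-44585243, had 46.5 and 61.5. The gene had 15 and 17 peaks over its body, more per length than 90.7% and 92.6% of protein-coding genes of 40 kb or more. In the list of 33 tetraspanins, 28 (84.8%) had a TSS peak in both replicates, near the 79.3% of all protein-coding genes. CD82 had rank 7 of 28 by mean fold enrichment.

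The promoter of CD82 is shown because it lay under the TSS peak over all its 300 bp in both replicates and held 4 matches to GGGCGG, the letters bound by SP factors. Capitals mark matches on either strand to GGGCGG (SP), CCAAT (NFY) and TATAAA (the TATA box) here and in the promoters below, all from RefSeq on GRCh38.p14, where 3 of the 5 genes were matched, and each runs 5′ to 3′ along its gene.
CD82 promoter, chr11:44565413-44565712, plus strand: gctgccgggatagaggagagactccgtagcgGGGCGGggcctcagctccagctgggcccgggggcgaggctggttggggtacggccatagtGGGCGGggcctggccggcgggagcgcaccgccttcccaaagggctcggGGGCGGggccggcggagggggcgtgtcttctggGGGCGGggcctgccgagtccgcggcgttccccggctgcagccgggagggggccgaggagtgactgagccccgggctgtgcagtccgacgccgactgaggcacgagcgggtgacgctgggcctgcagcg
It had a GC content of 76.7% and 33 CpG dinucleotides, more than 82.8% of the 35116 promoters of the table. GGGCGG occurred in 45.0% of those promoters, CCAAT in 34.6% and TATAAA in 11.5%.

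TP53I11 (ENSG00000175274.19, chr11:44885903-44951306, minus strand) had the strongest TSS peak of the 5 genes. Its fold enrichments were 66.3 and 76.3 (71.3 ± 7.09, SD, n = 2) and its heights 287 (255 to 322) and 344 (309 to 382), above 64.1% and 69.9% of the genes with a TSS peak. All 20 of its start positions had a peak within 1 kb in both replicates. Among them, the internal starts at 44936056 and 44937250 had 35.7 and 34.9, and that at 44943191 had 25.1 and 25.4. A separate region upstream of the gene, chr11:44951840-44952747, had 57.8 and 55.3 and lay 534 bp from the most 5′ TSS. With 22 and 23 peaks, the gene held more per length than 94.6% and 95.3% of protein-coding genes of 40 kb or more. The body overlaps that of TSPAN18 by 46521 bp, where 11 regions are shared by both genes, among them the strongest region of TP53I11 away from TSSs (56.6 and 65.7).

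The promoter shown for TP53I11 is the one of its 3 RefSeq starts with the most CpG dinucleotides (45, more than 96.5% of all promoters), and it lay wholly under the peak in both replicates.
TP53I11 promoter, chr11:44950834-44951133, minus strand: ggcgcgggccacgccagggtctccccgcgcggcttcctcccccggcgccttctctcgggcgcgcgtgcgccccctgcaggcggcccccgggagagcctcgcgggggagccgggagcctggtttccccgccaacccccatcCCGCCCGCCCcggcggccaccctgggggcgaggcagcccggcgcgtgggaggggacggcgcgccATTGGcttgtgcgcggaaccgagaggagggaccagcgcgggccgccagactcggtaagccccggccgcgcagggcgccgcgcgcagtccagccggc
It held 2 overlapping SP matches and 1 NFY match. The promoter of the most 5′ start, at 44951306, had 6 CpG dinucleotides and no match to these motifs, and 192 of its 300 bp lay under the peak in replicate 1 and all 300 in replicate 2.

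PRDM11 (ENSG00000019485.14, chr11:45095806-45235110, plus strand), the nearest of the 5 genes to QML_93, was open at an internal GENCODE start and not at the first. The most 5′ TSS in GENCODE had no peak within 1 kb in either replicate. It is the start of transcript PRDM11-203 alone and is not among the RefSeq starts of the gene. The most 5′ RefSeq start, at 45146639, was open. The nearest peak began 2133 bp away, with 15.0 and 13.7. The strongest TSS peak lay over the starts at 45146639 and 45147343, 94.0 kb right of the amplicon, with fold enrichments of 61.9 and 53.3 (57.6 ± 6.08, SD, n = 2) and heights of 268 (237 to 302) and 240 (211 to 272). This was above 60.0% and 50.6% of the genes with a TSS peak. A further RefSeq start, at 45181036, is 1881 bp from any start of the gene in GENCODE, so its peak (41.6 and 35.4) was counted as intronic. The body had 20 and 18 peaks, more per length than 70.1% and 63.3% of genes of 40 kb or more. In the list of 17 PRDM genes, 15 (88.2%) had a TSS peak in both replicates, beside 79.3% of all protein-coding genes. PRDM11 had rank 5 of 15.

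Of the promoters of PRDM11, that at the strongest TSS peak and that of the RefSeq start without a GENCODE counterpart are shown, since both lay under a peak over their full length in both replicates.
PRDM11 promoter, chr11:45147093-45147392, plus strand: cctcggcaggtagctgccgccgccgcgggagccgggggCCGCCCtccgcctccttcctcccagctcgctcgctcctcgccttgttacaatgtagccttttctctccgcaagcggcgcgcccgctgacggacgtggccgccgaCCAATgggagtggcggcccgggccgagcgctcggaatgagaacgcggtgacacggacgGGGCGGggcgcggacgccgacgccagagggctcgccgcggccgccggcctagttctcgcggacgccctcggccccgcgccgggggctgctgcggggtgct
PRDM11 promoter, RefSeq start only, chr11:45180786-45181085, plus strand: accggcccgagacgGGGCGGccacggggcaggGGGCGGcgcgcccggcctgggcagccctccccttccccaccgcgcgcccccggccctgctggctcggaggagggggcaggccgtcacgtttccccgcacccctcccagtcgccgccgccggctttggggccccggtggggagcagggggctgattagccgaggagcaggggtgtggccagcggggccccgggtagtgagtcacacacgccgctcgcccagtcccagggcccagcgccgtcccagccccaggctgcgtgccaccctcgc
The first had 48 CpG dinucleotides, more than 98.0% of all promoters, with 2 SP matches and 1 NFY match. The second had 32, more than 81.1%, with 2 SP matches and no CCAAT.

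TSPAN18 (ENSG00000157570.12, chr11:44726465-44932423, plus strand) was the longest of the 5 genes and was stronger in its introns than at its starts. Its strongest TSS peak had fold enrichments of 25.5 and 22.8 (24.2 ± 1.95, SD, n = 2), above 23.6% and 20.9% of the genes with a TSS peak, and was within 1 kb only of the start at 44926367, that of a transcript that retains an intron. At the 5′ end of the gene a peak at chr11:44727871-44728211 had 16.8 and 18.4. It lay past the annotated starts, 697 bp from that at 44727174 and 1406 bp from the most 5′ one in replicate 1. The strongest region in an intron, at chr11:44862155-44862996, had 74.1 and 63.5 (68.8 ± 7.51), more than any TSS peak of the gene in either replicate. It was 2552 bp from the nearest annotated TSS. The body had 30 and 32 peaks, more per length than 70.7% and 71.3% of genes of 40 kb or more. Of the tetraspanins with a TSS peak, TSPAN18 had rank 20 of 28.

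SYT13 (ENSG00000019505.8, chr11:45240302-45286341, minus strand) had no TSS peak at any of its 3 start positions. The nearest peak was 5146 bp from one of them in replicate 1 and 7310 bp in replicate 2. The 1 kb around its most 5′ TSS held 56 CpG dinucleotides. The median was 58 over all protein-coding genes and 17 over those without a TSS peak. Of the 10590 protein-coding genes with at least as many as SYT13, 9782 (92.4%) had a TSS peak in both replicates, and SYT13 was not among them. The reason for its lack of a TSS peak was not tested. Its body, the shortest of the 5, had 7 and 4 peaks, more per length than 72.5% and 44.6% of genes of 40 kb or more. One of them was strong, at chr11:45252289-45252817 over an exon, 33.8 kb past the most 5′ TSS, with fold enrichments of 48.8 and 46.9 (47.8 ± 1.34, SD, n = 2) and a height of 211 (183 to 241) in each replicate. This region had 14 CpG dinucleotides in the 300 bp at its midpoint. Among the 17 synaptotagmins, 13 (76.5%) had a TSS peak in both replicates, from 5.06 at SYT4 to 161 at SYT12. This share was near the 79.3% of all protein-coding genes.

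Besides these, 14 genes had a TSS in the interval, none of them protein-coding. Of the 11 long noncoding RNAs, 3 had a TSS peak in both replicates: LINC02685 (8.74 and 6.85), ENSG00000287984 (6.44 and 8.62) and LINC02687 (25.5 and 21.0). The 3 processed pseudogenes had none. The share of all long noncoding RNAs with a TSS peak was not computed, so the count of 3 has no background beside it.

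Of the motifs searched in the central 200 bp of each region, on both strands, that of CTCF was the most frequent in the interval relative to all regions. The letters CCNCNAGGNGGC, the core of the CTCF site, occurred in 9 of the 115 regions (7.83%), against 1.73% of all 215195 regions with peaks in both replicates. The AP-2 letters GCCNNNGGC occurred in 24 regions (20.9%, and 11.7% of all regions), and the SP letters GGGCGG in 20 (17.4%, and 9.25% of all). Several motifs had fewer matches in the interval than elsewhere. For AP-1, read as TGANTCA, there were 4 (3.48%, and 10.1% of all regions). For GATA factors, read as AGATAA, there were 6 (5.22%, and 9.37% of all). The TATA box had 3 (2.61%, and 8.05% of all). ETS factors, read as CCGGAA, had 1 (0.870%, and 3.39% of all). The remaining shares were near those of all regions: 23.5% beside 23.3% for the NFY letters, 14.8% beside 13.7% for TEAD factors, read as GGAATG, and 4.35% beside 5.61% for FOX factors, read as TGTTTAC. The full oestrogen response element, GGTCANNNTGACC, was found in 0 of the 115 regions and in 0.0641% of all regions. Matches are descriptions of letters, and binding was not measured. Base composition was not matched between the interval and all regions, and its part in these shares was not tested. No motif matched in the central 200 bp of the QML_93 region, which do not reach the amplicon.

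The 9 CTCF matches are shown because they place the candidate sites of this insulator protein relative to the genes. Each is given on its own strand with 10 bases either side, and capitals mark the 12 letters of the match.
chr11:44621310-44621321 (+): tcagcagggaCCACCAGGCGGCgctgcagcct
chr11:44728008-44728019 (+): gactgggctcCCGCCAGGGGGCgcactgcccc
chr11:44786504-44786515 (+): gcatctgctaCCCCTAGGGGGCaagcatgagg
chr11:44873692-44873703 (-): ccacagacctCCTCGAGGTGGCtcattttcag
chr11:44899566-44899577 (-): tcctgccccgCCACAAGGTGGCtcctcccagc
chr11:44911506-44911517 (-): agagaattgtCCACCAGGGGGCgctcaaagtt
chr11:45105684-45105695 (-): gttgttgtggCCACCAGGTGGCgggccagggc
chr11:45267162-45267173 (+): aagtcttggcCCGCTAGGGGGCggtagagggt
chr11:45340201-45340212 (+): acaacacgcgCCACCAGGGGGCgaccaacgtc
The first lies past the end of CD82, the next is in the 5′ region of TSPAN18, and the next 4 are in its introns, the last 2 of these also within TP53I11. One is in PRDM11, 52.6 kb right of the amplicon, one in SYT13, and the last is intergenic past SYT13. On the plus strand there were 5 and on the minus strand 4. The region past SYT13 was the strongest (49.7 and 45.1), followed by the last one in TP53I11 (43.0 and 36.3), and the median mean fold enrichment was 15.0 over these 9 regions and 8.07 over the other 106.

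At the limits of the selection, the first peaks inside the interval on the left had fold enrichments of 3.68 and 5.31 and the last before it 15.6 and 13.3. On the right the last inside had 25.5 and 21.0 and the first after it 10.4 and 8.18. For TSS peaks, the farthest counted was 800 bp from a TSS in replicate 1 (8.74) and 945 bp in replicate 2 (4.42). The nearest left out were 1068 bp away in replicate 1 (28.5, in CD82) and 1067 bp in replicate 2 (46.9, the exon peak of SYT13, whose nearest start is that of the long noncoding RNA ENSG00000254497).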

How the data were processed

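ATAC-seq of CAMA-1 was analysed from the authors' peak lists, 1 for each of 2 replicates, not pooled. Per the submitters' processing notes, reads were trimmed with Trim Galore 0.6.5, aligned with Bowtie2 2.3.5.1 and called with MACS2 2.2.6 on hg38. How MACS2 was set, how duplicate reads were treated and any shift of reads for the Tn5 cut are not given in the sources used here. The deposited columns hold a score (10 times the −log10 q-value), a fold enrichment (a ratio of pileup plus 1 to background plus 1) and −log10 values for the p-value and q-value. The p-values belong to the peak caller. The depth is not in the lists, so precision is given by exact Poisson 95% intervals on heights, recovered from the step of the fold enrichment (0.230 and 0.221, for a background of 3.35 and 3.52). The Poisson p of each recovered height was within 0.01 of the deposited −log10 p-value in 100% of the peaks that could be checked. Thus the same background stood under all peaks of a list. Nothing was corrected for copy number, for which the paper reports aberrations in CAMA-1. The part of copy number in the fold enrichments, peak numbers and percentiles was not tested.

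Genes came from GENCODE release 44. Peaks of the replicates were matched by at least 1 bp of overlap and merged into regions, whose fold enrichment is the mean of the strongest peak of each replicate. A percentile is the share of values that are lower. Nothing was tested, since there is 1 condition. Named are the 5 genes, the peak over the amplicon with its neighbours, and the 5 strongest regions of the interval. The members, motifs and lists were chosen with earlier results of these data known, and regions beyond that rule were chosen after their values were seen. Python 3.11.15, numpy 2.4.6, scipy 1.17.1, pysam 0.24.0 and matplotlib 3.10.9 were used, and the functions were checked on simulated data. The alternatives tried were a minimum −log10 q of 10, the 50000 peaks with the highest fold enrichment, other measures and neighbours for the rank, other TSS distances and starts, other overlaps, other windows, and each replicate alone. The result for 1 further gene of the leukocyte list is not reported here.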

Additional observations from a re-analysis of the deposited data

How the results depend on the processing

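Of 36 alternative values of 9 results computed on both replicates, 28 differed from the main value by less than the SD between replicates, or for counts by no more than 1.5 times, and 8 by more. Many of the 28 were fixed in advance. A peak that is kept has the same fold enrichment under any filter, TSS distance or choice of start. Ranks of the QML_93 peak by −log10 q equalled those by fold enrichment. The count of 28 is therefore no measure of stability. A further 6 alternatives gave no value, since no peak was left to count in at least 1 replicate. Either the filter removed the peak or the narrower choice of TSS no longer counted it. The mean percentile of the QML_93 peak in the interval, 75.6, was 66.3 among peaks past a −log10 q of 10 and 83.6 by peak width. Among the 50000 strongest peaks (fold enrichment from 23.7 in replicate 1 and 24.5 in replicate 2) the QML_93 peak and the TSS peak of TSPAN18 were not present in both replicates, and 25 regions of the interval were, against 115. The percentile of the peak number, 81.1, was 80.0 past the same q, 79.4 by bases under peaks and 85.2 among windows of chromosome 11. The members with a TSS peak, 4, were 2 at the most 5′ TSS alone, where TSPAN18 and PRDM11 had none, and 3 within 100 bp of a TSS, where TSPAN18 had none. Within 3 kb of a TSS, the strongest peak of TSPAN18 was 68.8 instead of 24.2. SYT13 had no TSS peak under any of these settings. A replicate alone is always within the SD of the mean of both, so these values are given as ranges and say nothing of stability. With each replicate alone, the QML_93 peak was at 17.5 to 24.3, its percentile at 72.2 to 79.1, and the TSS peaks at 61.7 to 67.9 for CD82 and 53.3 to 61.9 for PRDM11. No paired analysis was possible because there is only 1 condition.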
